A study of Homo sapiens with 6 samples.

Results

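RMRP, RPPH1, 7SK and 7SL are short non-coding RNAs made by RNA polymerase III (Pol III). The report covers 6 listed names, RMRP, RPPH1, ENSG00000259001, RN7SK, RN7SL1 and RN7SL2, in RNA-seq libraries of K562 cells, a human erythroleukaemia line. Rows of the gene count table were taken by name, and the members were chosen by their counts, since RMRP and ENSG00000259001 headed the table, so their levels are given as a description without a test. Of the 6 names, 2 (RMRP and ENSG00000259001) had a row of exactly that name, and RN7SK was followed through the row 7SK, a synonym of it in RefSeq. These 3 rows of the 52088 in the table are the ones analysed. RPPH1, RN7SL1 and RN7SL2 have no row of that name in the table used here.

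There were 3 groups of 2 libraries of total RNA: PAX6_Ta KO, in which the ultra-conserved non-coding element PAX6_Tarzan was deleted, PBX3_Cl KO, in which the element PBX3_Claudia was deleted, and Control, K562 cells with the genotype label WT. Each knockout line was grown from a single cell after transfection with a plasmid carrying Cas9 and paired guide RNAs and selection with puromycin, so a deletion and the clone that carries it cannot be told apart. That plasmid drives the guide RNAs from the U6 promoter and the H1 promoter, and the H1 promoter is the promoter of RPPH1. The deleted elements are non-coding, so the gene counts do not check the deletions. The labels do not say whether the 2 libraries of a group came from separate cultures, so each p-value measures only the spread between libraries, which may be technical.

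RMRP is the RNA of RNase MRP, a nuclear and mitochondrial enzyme known for cutting precursors of ribosomal RNA, and RPPH1 (H1 RNA) is the catalytic RNA of RNase P, which removes the leader of precursor transfer RNAs. Both enzymes share most of their proteins. RN7SK (7SK RNA) holds the elongation kinase P-TEFb in an inactive particle, and RN7SL1 and RN7SL2 encode 7SL, the RNA of the signal recognition particle, which brings nascent secreted proteins to the endoplasmic reticulum. RMRP, RPPH1 and RN7SK belong to the Pol III genes whose promoters lie wholly upstream of the start, with a TATA box near it and, in many, an octamer farther upstream, and Pol III ends its transcripts at runs of T.

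RMRP was placed at chr9:35657751-35658014 on the minus strand of GRCh37 (264 bases, annotated by GENCODE as a ribozyme), 272 bases from the start of CCDC107, a gene on the other strand. ENSG00000259001 spans chr14:20811207-20811844 on the minus strand (638 bases, annotated as a long non-coding RNA) and overlaps the first 71 bases of PARP2, which lies on the plus strand. The RefSeq window at the PARP2 start held the first 27 bases of RefSeq RPPH1 in reverse, and that window matched chromosome 14 of GRCh37 at 1 place. This put the 5′ end of RPPH1 at position 20811570, which is 274 bases inside ENSG00000259001. The RefSeq RPPH1 RNA of 341 bases would end at 20811230 if it were collinear, still inside the row. Counts of ENSG00000259001 therefore cover the RPPH1 stretch, and its reads cannot be split between RPPH1 and the rest of the row. RN7SK lies at chr6:52860418-52860748 on the plus strand (331 bases). A further 3 loci bear the bare name 7SK in GENCODE, so the row 7SK was tied to RN7SK by name alone. RN7SL2 (chr14:50329271-50329567) and RN7SL3 (chr14:50320336-50320632) are identical at 286 of 297 aligned positions (96.3%), so reads of one can also align to the other.

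The bases before each start are shown because these promoters carry no element inside the gene. They were read from GRCh37, 5′ to 3′ on the strand of the gene, with the octamer ATTTGCAT and the TATA box TATA in capitals.
RMRP, bases upstream, chr9:35658015-35658264: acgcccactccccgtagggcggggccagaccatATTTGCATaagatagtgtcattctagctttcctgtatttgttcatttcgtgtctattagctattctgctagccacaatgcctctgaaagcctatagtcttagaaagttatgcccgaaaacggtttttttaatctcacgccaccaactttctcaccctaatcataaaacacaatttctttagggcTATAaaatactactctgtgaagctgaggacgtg
RPPH1 within ENSG00000259001, bases upstream, chr14:20811571-20811820: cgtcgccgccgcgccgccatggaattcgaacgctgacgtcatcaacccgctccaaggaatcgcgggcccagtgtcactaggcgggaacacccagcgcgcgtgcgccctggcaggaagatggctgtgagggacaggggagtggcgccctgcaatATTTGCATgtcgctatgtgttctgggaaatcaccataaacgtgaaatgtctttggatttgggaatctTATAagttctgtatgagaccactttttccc
RN7SK, bases upstream, chr6:52860168-52860417: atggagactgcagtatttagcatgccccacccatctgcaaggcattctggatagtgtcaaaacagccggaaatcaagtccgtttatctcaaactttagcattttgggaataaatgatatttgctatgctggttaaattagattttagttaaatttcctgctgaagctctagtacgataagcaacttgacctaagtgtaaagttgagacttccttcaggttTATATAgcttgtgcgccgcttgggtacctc

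TATA lay 33 to 30 bases before RMRP and 30 to 27 bases before RPPH1. Before RN7SK it occurred at 30 to 27 and, overlapping, at 28 to 25 bases. The octamer lay 217 to 210 bases before RMRP and 97 to 90 bases before RPPH1, and these letters, searched on both strands, are not in the RN7SK window. Among 35116 RefSeq windows cut to the same 250 bases before a gene start, 1.63% held the octamer, 5.29% held TATA between 35 and 25 bases upstream, and 0.168% held both. A match is a description of the letters and not evidence of binding.

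The transcribed bases are shown so that their length, composition and 3′ ends can be read beside their levels. Capitals mark the T run at the 3′ end of RMRP and RN7SK, and in RPPH1 they mark the 27 bases shared with the RefSeq window at PARP2.
RMRP, whole, with 20 bases after it, chr9:35657731-35658014: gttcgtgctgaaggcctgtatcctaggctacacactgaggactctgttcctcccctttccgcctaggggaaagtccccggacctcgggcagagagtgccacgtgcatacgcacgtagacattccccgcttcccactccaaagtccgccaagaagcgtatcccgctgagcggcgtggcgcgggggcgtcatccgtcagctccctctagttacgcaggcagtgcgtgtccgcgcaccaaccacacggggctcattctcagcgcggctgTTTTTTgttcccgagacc
RPPH1 within ENSG00000259001, first 300 bases, chr14:20811271-20811570: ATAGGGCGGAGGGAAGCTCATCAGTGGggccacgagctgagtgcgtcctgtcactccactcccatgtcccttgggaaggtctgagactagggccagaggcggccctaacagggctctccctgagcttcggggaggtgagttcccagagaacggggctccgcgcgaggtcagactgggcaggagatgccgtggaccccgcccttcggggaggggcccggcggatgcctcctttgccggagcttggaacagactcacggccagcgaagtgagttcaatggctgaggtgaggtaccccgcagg
RN7SK, last 280 bases with 20 bases after it, chr6:52860469-52860768: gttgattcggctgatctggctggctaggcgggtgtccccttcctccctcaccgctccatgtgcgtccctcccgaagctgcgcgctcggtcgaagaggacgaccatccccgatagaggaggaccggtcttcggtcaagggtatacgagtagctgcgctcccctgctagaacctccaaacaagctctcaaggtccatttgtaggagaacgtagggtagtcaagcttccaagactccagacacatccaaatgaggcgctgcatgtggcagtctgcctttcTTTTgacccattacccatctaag

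The T run of RMRP had 6 bases and began at base 3 after the annotated end, and that of RN7SK had 4 bases and began at base -2 relative to its end. GC content was 63.3% in RMRP, 63.6% over the RefSeq length of RPPH1 and 58.0% in RN7SK. The RNAs are not copies of each other: RMRP aligned to RPPH1 with 51.7% identity and to RN7SK with 49.7%.

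The 6 libraries held between 45912044 and 60908470 counts, and 20746 of the 34890 genes with counts passed the expression filter. Markers of K562 cells (globins, erythroid factors and others, 10 of 10 detected) summed to 9003.8 to 10573 CPM (counts scaled to a common library size) in PAX6_Ta KO, 7141.1 to 8618.5 in PBX3_Cl KO and 5680.5 to 6595.3 in Control. Lymphoid markers (4 of 5 detected, MS4A1 at 0) summed to 5.04 to 10.6 CPM and myeloid markers (4 of 4) to 4.43 to 18.5 CPM over the libraries. Fibroblast markers (4 of 5, LUM at 0) summed to 22.95 to 23.1 CPM in PAX6_Ta KO, 3.02 to 3.14 in PBX3_Cl KO and 49.0 to 133 in Control, nearly all COL1A2 in Control. Among the K562 markers, the globins HBG2, HBE1 and HBZ were called higher in PAX6_Ta KO than in Control (log2 fold changes 1.10, 1.06 and 0.93, edgeR). The part of these differences in the levels of the short RNAs was not tested. PBX3_Cl KO replicate 2 stood apart from the other 5 libraries in some of its short RNAs, but not in all. SNORD3A, the U3 RNA that guides ribosomal RNA cleavage, had 762 CPM there, against 3359.7 to 7176.9 CPM in the other libraries. The telomerase RNA TERC had 676 CPM there, within the 482 to 850 CPM of the other libraries. The chi-square between the 2 libraries of a group, per degree of freedom over genes, was 138.8 in PBX3_Cl KO, 44.02 in PAX6_Ta KO and 53.01 in Control, so the libraries of a group differed beyond sampling noise.

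RMRP and ENSG00000259001 were the most counted rows of all 6 libraries. RMRP ranked 1 in the PAX6_Ta KO and PBX3_Cl KO libraries and 2 in both Control libraries, and ENSG00000259001 ranked 2 in the knockouts and 1 in Control. The 3 rows together took 3.86% and 3.07% of the counts in PAX6_Ta KO, 3.84% and 2.15% in PBX3_Cl KO, and 3.42% and 3.33% in Control. The other rows among the 10 with the most counts over all libraries were EEF1A1, MT-CO1, EEF2, HSP90AB1, SNORD3A, MT-ND4 and HBE1, so 4 of these 10 were non-coding RNAs.

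RMRP had 892723 and 671442 counts in PAX6_Ta KO, 817570 and 464097 in PBX3_Cl KO, and 794191 and 606776 in Control. As shares of a library, these were 1.79% and 1.39%, 1.70% and 1.01%, and 1.30% and 1.27%. The Wilson 95% interval was 1.787% to 1.795% for the highest of these shares and 1.008% to 1.014% for the lowest, and such intervals cover counting error only. The knockout libraries lay on both sides of the Control range for PBX3_Cl KO, and above it for PAX6_Ta KO. After scaling by the trimmed mean of M values (TMM), RMRP stood at 18576 and 12746 CPM in PAX6_Ta KO, 18535 and 10126 CPM in PBX3_Cl KO, and 13221 and 12008 CPM in Control. On this scale the 2 highest libraries were replicate 1 of each knockout, and both knockout groups overlapped Control.

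ENSG00000259001 had 597378 and 535654 counts in PAX6_Ta KO, 666641 and 348623 in PBX3_Cl KO, and 891060 and 697836 in Control. Its shares were 1.20% and 1.11% in PAX6_Ta KO, 1.39% and 0.759% in PBX3_Cl KO, and 1.46% in each Control library. All 4 knockout shares were below both Control shares, and how many other rows lay so is not given here. The Wilson 95% interval of the lowest share was 0.757% to 0.762%. In TMM-scaled CPM the row stood at 12430 and 10168 in PAX6_Ta KO, 15113 and 7606.3 in PBX3_Cl KO, and 14834 and 13810 in Control, so PAX6_Ta KO remained below Control while PBX3_Cl KO spanned it.

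The row 7SK had 432255 and 277485 counts in PAX6_Ta KO, 362327 and 174813 in PBX3_Cl KO, and 400596 and 292893 in Control. Its shares were 0.867% and 0.575% in PAX6_Ta KO, 0.753% and 0.381% in PBX3_Cl KO, and 0.658% and 0.611% in Control. Replicate 1 of each knockout lay above the Control range and replicate 2 of each below it. The Wilson 95% interval of the lowest share was 0.379% to 0.383%. TMM-scaled values were 8994.5 and 5267.5 CPM in PAX6_Ta KO, 8214.1 and 3814.1 CPM in PBX3_Cl KO, and 6668.9 and 5796.5 CPM in Control.

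**Figure D1:**
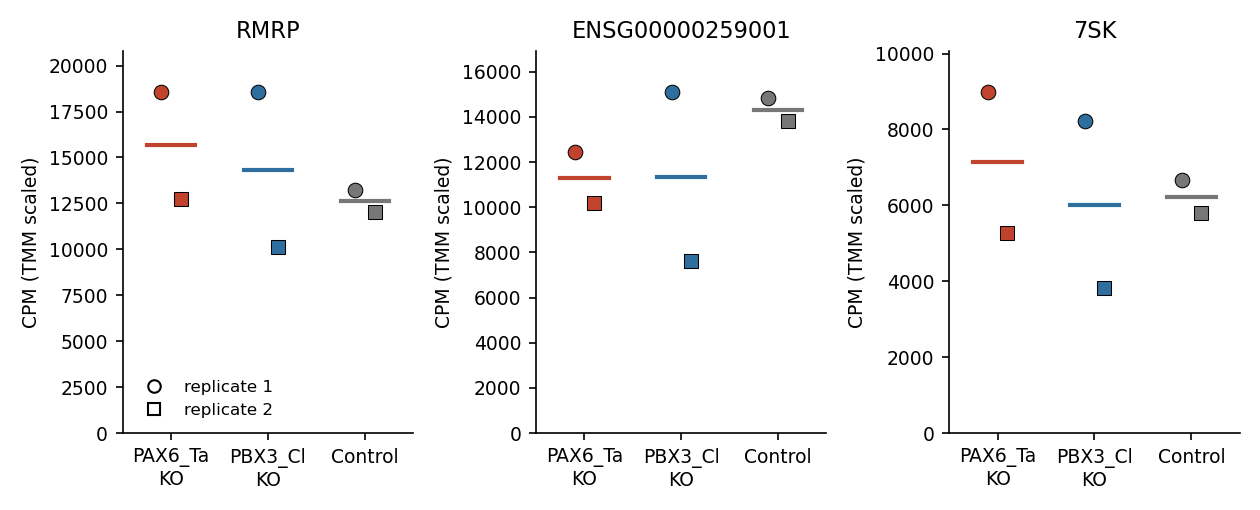
TMM-scaled CPM (vertical axes, linear from 0) of RMRP, ENSG00000259001 and 7SK in PAX6_Ta KO, PBX3_Cl KO and Control, with circles for replicate 1, squares for replicate 2 and a bar at the mean of 2 libraries. Replicate 2 was lower than replicate 1 for each row in each group, with the widest gaps in PBX3_Cl KO (18535 and 10126 CPM for RMRP).

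Per annotated length, RMRP was the highest of the rows. It reached 70364 and 48280 CPM per kilobase in PAX6_Ta KO, 70207 and 38355 in PBX3_Cl KO, and 50081 and 45486 in Control. 7SK reached 27174 and 15914 CPM per kilobase in PAX6_Ta KO, 24816 and 11523 in PBX3_Cl KO, and 20148 and 17512 in Control. ENSG00000259001 reached 19483 and 15938 CPM per kilobase in PAX6_Ta KO, 23688 and 11922 in PBX3_Cl KO, and 23251 and 21646 in Control. The order of RMRP above both other rows held in every library. 7SK was above ENSG00000259001 in replicate 1 of each knockout and below it in replicate 2 of each knockout and in both Control libraries. This order was not tested. Length for ENSG00000259001 is that of the whole row, longer than RPPH1, so its level per kilobase depends on how much of the row is transcribed.

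The replicates of the knockout lines differed more in these rows than those of Control. On the TMM scale, with 0.5 CPM added, the log2 ratio of replicate 2 to replicate 1 for RMRP was -0.54 in PAX6_Ta KO, -0.87 in PBX3_Cl KO and -0.14 in Control. Of all tested genes, 3.31%, 1.93% and 30.0% had a ratio at or below these values in the same 3 groups. For ENSG00000259001 the log2 ratio was -0.29 in PAX6_Ta KO (16.1% of tested genes at or below it), -0.99 in PBX3_Cl KO (1.20%) and -0.10 in Control (34.6%). For 7SK it was -0.77 in PAX6_Ta KO (0.665%), -1.11 in PBX3_Cl KO (0.737%) and -0.20 in Control (22.6%). The middle 90% of tested genes spanned -0.48 to 0.52 in PAX6_Ta KO, -0.67 to 0.83 in PBX3_Cl KO and -0.49 to 0.54 in Control. All 3 rows thus fell outside that span in PBX3_Cl KO, RMRP and 7SK fell outside it in PAX6_Ta KO, and none did in Control. With 2 libraries a group these are descriptions, and their cause was not tested.

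Some other structured short RNAs were also lower in replicate 2, but not always in the groups where RMRP, ENSG00000259001 and 7SK differed most. SNORD3A had a log2 ratio of replicate 2 to replicate 1 of -1.09 in PAX6_Ta KO, -3.12 in PBX3_Cl KO and -0.61 in Control. SCARNA5, a Cajal body RNA, had -1.36, -1.70 and -1.23 in the same 3 groups, with 0.559% of tested genes at or below it in Control. TERC, the template RNA of telomerase, had -0.82 in PAX6_Ta KO, -0.24 in PBX3_Cl KO (28.6% of tested genes at or below it) and -0.20 in Control. Of 14 tested snRNA rows (spliceosomal and related RNAs made by Pol II), 13 in PAX6_Ta KO, 14 in PBX3_Cl KO and 9 in Control were lower in replicate 2. Of 15 tested longer snoRNA, scaRNA and TERC rows, the counts were 9, 12 and 7. MALAT1, a long nuclear RNA, was instead higher in replicate 2, with log2 ratios of 0.46, 0.57 and 0.25. VTRNA1-3, a vault RNA, had log2 ratios of 1.05 in PAX6_Ta KO, -0.82 in PBX3_Cl KO and 1.08 in Control, and RNU6-2, a U6 RNA, had 0.56, -0.23 and 0.70. Short RNAs were therefore not all lower in replicate 2.

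**Figure D2:**
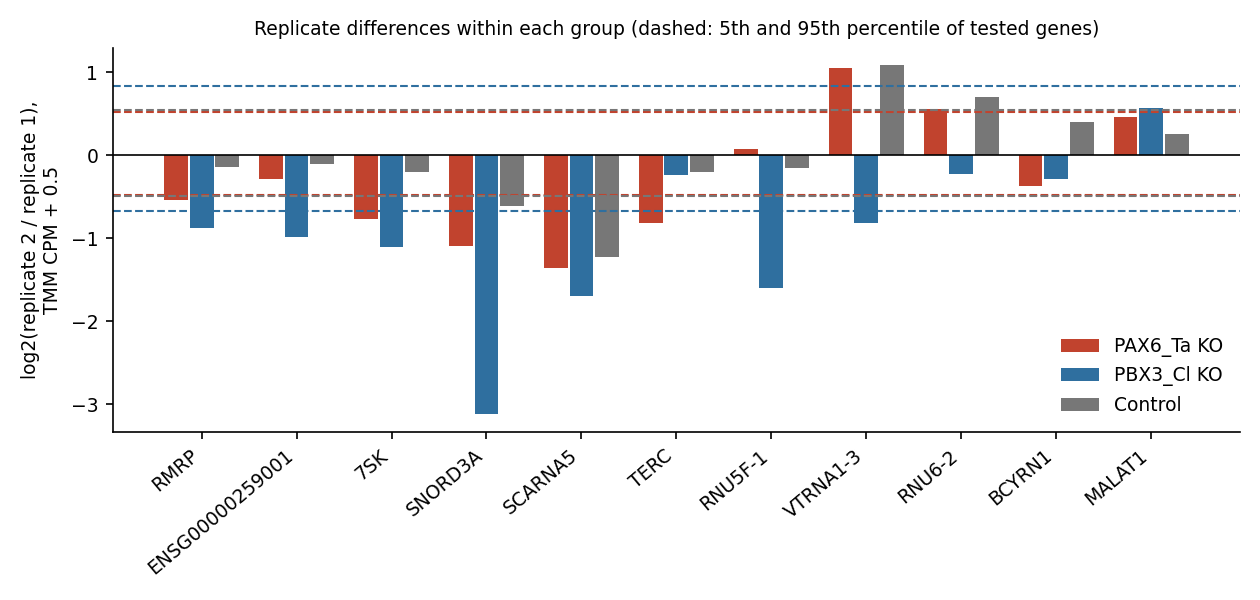
Log2 ratio of replicate 2 to replicate 1 (vertical axis, TMM-scaled CPM with 0.5 added) for the 3 rows and 8 other RNAs, with 1 bar for each of PAX6_Ta KO, PBX3_Cl KO and Control and dashed lines at the 5th and 95th percentile of tested genes of each group. RMRP, ENSG00000259001 and 7SK lay below 0 in all 3 groups and below the lower line in PBX3_Cl KO, while MALAT1 lay above 0.

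To compare the groups, the edgeR quasi-likelihood test was fitted to all genes and all 6 libraries, with Benjamini-Hochberg adjustment. In PAX6_Ta KO against Control, 7.21% of tested genes were called higher and 4.21% lower, and of the 3 rows 0 were called in either direction. RMRP had a log2 fold change of 0.31 ± 0.35 (SE, adjusted p = 0.71), with means of 15661 ± 4122.4 CPM in PAX6_Ta KO and 12614 ± 858 CPM in Control (SD, n = 2 each, edgeR). ENSG00000259001 had -0.34 ± 0.35 (adjusted p = 0.67, edgeR), with means of 11299 ± 1599.5 and 14322 ± 724 CPM in PAX6_Ta KO and Control (SD, n = 2 each). 7SK had 0.19 ± 0.38 (adjusted p = 0.85, edgeR), with means of 7131 ± 2635.4 and 6232.7 ± 617 CPM in PAX6_Ta KO and Control (SD, n = 2 each). Both PAX6_Ta KO libraries lay below both Control libraries in ENSG00000259001, while the groups overlapped in RMRP and 7SK. The share of all tested genes that keep these groups apart is not given here. With DESeq2, or without adjustment (p under 0.05), the calls among the rows were also 0. The median log2 fold change of the 3 rows was 0.19, beside -0.02 over all tested genes. Without PAX6_Ta KO replicate 1, the value of 7SK turned to -0.25 (adjusted p = 0.94) and that of RMRP came to 0.01 (adjusted p = 1.00).

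In PBX3_Cl KO against Control, 6.28% of tested genes were called higher and 2.69% lower, and again 0 of the 3 rows were called by edgeR. DESeq2 called 0 as well, and 0 had an unadjusted p under 0.05. RMRP had a log2 fold change of 0.18 ± 0.35 (SE, adjusted p = 0.87, edgeR), and its mean was 14330 ± 5946.1 CPM in PBX3_Cl KO (SD, n = 2). ENSG00000259001 had -0.33 ± 0.35 (adjusted p = 0.71, edgeR), with a mean of 11360 ± 5308 CPM. 7SK had -0.05 ± 0.38 (adjusted p = 0.98, edgeR), with a mean of 6014.1 ± 3111.3 CPM. The median of the 3 rows was -0.05, beside -0.01 over all tested genes. Leaving out PBX3_Cl KO replicate 2, the library that stood apart, gave 0.56 for RMRP (adjusted p = 0.39, edgeR), 0.08 for ENSG00000259001 (adjusted p = 0.91) and 0.40 for 7SK (adjusted p = 0.55). Leaving out PBX3_Cl KO replicate 1 gave -0.36 for RMRP, -0.95 for ENSG00000259001 and -0.75 for 7SK. The sign of each difference therefore turned with 1 PBX3_Cl KO library left out, and that of 7SK also turned without Control replicate 1. In bulk RNA, fewer cells that make an RNA and less of it per cell cannot be told apart.

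Both comparisons share the Control libraries, so the knockouts were also set against each other. In PAX6_Ta KO against PBX3_Cl KO, 12% of tested genes were called in either direction by edgeR and 0 of the 3 rows. DESeq2 called 0 of them, and 0 had an unadjusted p under 0.05. The edgeR log2 fold changes were 0.13 ± 0.35 for RMRP (SE, adjusted p = 0.88), -0.01 ± 0.35 for ENSG00000259001 (adjusted p = 0.99) and 0.25 ± 0.38 for 7SK (adjusted p = 0.77). Without PBX3_Cl KO replicate 2 they were -0.25, -0.43 and -0.21, with adjusted p of 0.70, 0.45 and 0.76.

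The ratio of 2 members within a library does not depend on how libraries are scaled. RMRP over ENSG00000259001, in counts, was 1.49 and 1.25 in PAX6_Ta KO, 1.23 and 1.33 in PBX3_Cl KO, and 0.891 and 0.870 in Control. All 4 knockout libraries had more RMRP than ENSG00000259001 counts, and both Control libraries had fewer. By geometric means, the ratio exceeded that of Control 1.55-fold in PAX6_Ta KO and 1.45-fold in PBX3_Cl KO, and the knockouts did not overlap Control. The two-sided exact permutation test gave p = 0.333 for each, the smallest p that 2 libraries against 2 allow, so this design cannot pass 0.05. How often the ratios of other pairs of rows keep the knockouts apart from Control is not given here. PBX3_Cl KO replicate 2, low in both rows, had a ratio of 1.33, between those of the PAX6_Ta KO libraries.

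RMRP over 7SK was 2.07 and 2.42 in PAX6_Ta KO, 2.26 and 2.65 in PBX3_Cl KO, and 1.98 and 2.07 in Control. The PAX6_Ta KO values overlapped those of Control (1.10-fold, exact permutation p = 0.667), and the PBX3_Cl KO values lay above them (1.21-fold, exact permutation p = 0.333). ENSG00000259001 over 7SK was 1.38 and 1.93 in PAX6_Ta KO, 1.84 and 1.99 in PBX3_Cl KO, and 2.22 and 2.38 in Control. Both knockouts lay below Control, at 0.710-fold in PAX6_Ta KO and 0.832-fold in PBX3_Cl KO (exact permutation p = 0.333 each). PAX6_Ta KO and PBX3_Cl KO overlapped in each of the ratios (exact permutation p = 0.667 each). A total of 9 such comparisons were made, 3 ratios in 3 pairs of groups.

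**Figure D3:**
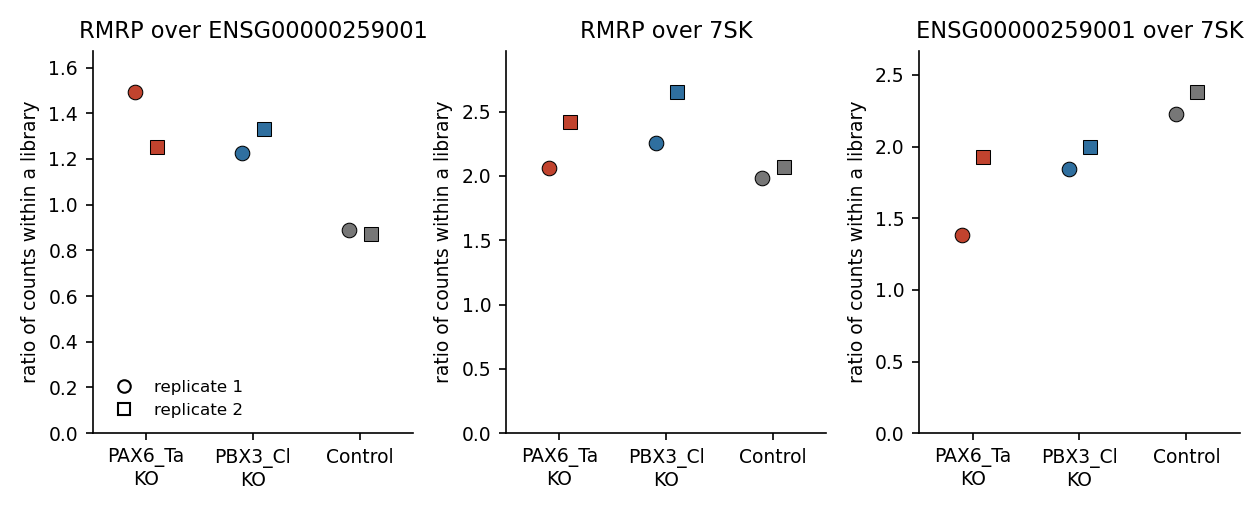
Ratios of counts within a library (vertical axes, linear from 0) for RMRP over ENSG00000259001, RMRP over 7SK and ENSG00000259001 over 7SK in PAX6_Ta KO, PBX3_Cl KO and Control, with circles for replicate 1 and squares for replicate 2. RMRP over ENSG00000259001 lay at 1.23 to 1.49 in the knockout libraries, above 0.870 to 0.891 in Control.

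The neighbours of the rows were counted far less. PARP2, the DNA repair enzyme that shares 71 bases with ENSG00000259001 on the other strand, had 13.65 and 15.0 CPM in PAX6_Ta KO, 12.2 and 13.3 CPM in PBX3_Cl KO, and 14.9 and 17.0 CPM in Control. Its log2 fold change was -0.15 in PAX6_Ta KO (adjusted p = 0.77, edgeR) and -0.33 in PBX3_Cl KO (adjusted p = 0.48) against Control. CCDC107, next to RMRP, had 20 and 21 counts in PAX6_Ta KO, 5 and 10 in PBX3_Cl KO, and 17 and 26 in Control. The library kit keeps strand, but no source used here states the strand setting of the counting, so reads over the stretch shared with PARP2 cannot be assigned to a strand.

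Other Pol III RNAs were counted at levels far below RMRP. RNU6-2, at 394 and 650 counts in PAX6_Ta KO, 424 and 373 in PBX3_Cl KO and 366 and 517 in Control, was the most counted of the 31 rows of that list. VTRNA1-3 had 188 and 454 counts in PAX6_Ta KO, 205 and 111 in PBX3_Cl KO, and 228 and 435 in Control. BCYRN1, the neuronal BC200 RNA derived from an Alu repeat, had 52 and 38 counts in PAX6_Ta KO, 48 and 37 in PBX3_Cl KO, and 114 and 135 in Control. All 4 knockout libraries were below Control in BCYRN1, and the share of all tested genes that lay so is not given here. Reads of BCYRN1 can also align to Alu copies elsewhere. Its log2 fold change was -1.34 ± 0.40 in PAX6_Ta KO (SE, adjusted p = 0.052, edgeR) and -1.27 ± 0.40 in PBX3_Cl KO (adjusted p = 0.079), so neither passed the threshold. Over 15 alternatives the adjusted p in PAX6_Ta KO ranged over 0.021 to 0.36 and passed in 6, with DESeq2 (0.031), no filter (0.021), only the 2 groups compared (0.035), the replicate number as a block (0.027), and without PBX3_Cl KO replicate 1 (0.031) or 2 (0.029). In PBX3_Cl KO it ranged over 0.034 to 0.44 and passed in 2, with no filter (0.034) and with the block (0.041). Only 5 of the 31 rows were tested, and edgeR called 0 of them in either knockout against Control. At an unadjusted p under 0.05, 1 of the 5 was lower in each knockout, and DESeq2 called 1 (BCYRN1) lower in PAX6_Ta KO and 0 in PBX3_Cl KO. PAX6_Ta KO gave the 5 a median log2 fold change of 0.19 and PBX3_Cl KO one of -0.81, beside -0.02 and -0.01 over all tested genes.

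RNY1, a Y RNA of the Ro particle, had 2 and 3 counts in PAX6_Ta KO, 2 and 1 in PBX3_Cl KO, and 2 in each Control library. RNY4 and the 17 rows RNA5S1 to RNA5S17 (5S ribosomal RNA) had 0 counts in all 6 libraries. A count of 0 allows up to 3 counts, or 0.0493 to 0.0653 CPM over the libraries. Several copies of one sequence share reads, and a counter that drops such reads leaves them at 0, so a 0 here does not show that 5S RNA was absent. The reads of these libraries were not re-aligned.

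The short RNA rows with the most counts were annotated at 200 bases or more, but many rows of that length had few counts. Of 52 listed rows under 200 bases, 23 were at 0 in all libraries, among them the 17 rows of 5S RNA. RNU6-2 (10.3 CPM in its highest group mean) was the 1 row of these 52 that reached 10 CPM in a group mean. Of 17 listed rows of 200 bases or more, 1 was at 0, 11 reached 10 CPM and 6 reached 100 CPM. These 6 were RMRP, 7SK and ENSG00000259001, which were chosen by their counts, and SNORA73B, TERC and SNORD3A. Over all rows of short RNA classes in the annotation, the 1631 rows under 100 bases took between 0.0243% and 0.0357% of a library, and the 2412 rows from 100 up to 200 bases took between 0.0155% and 0.0281%. The 635 rows from 200 up to, but not including, 300 bases took 1.82% and 1.41% in PAX6_Ta KO, 1.73% and 1.03% in PBX3_Cl KO, and 1.33% and 1.30% in Control. Without RMRP, that class took between 0.0194% and 0.0311%, within the span of the shorter classes. With the class edges moved by 50 bases, 8 of the 12 mean shares of a class in a group moved by the SD of the group or more. Rows of 300 bases and over took 0.707% and 0.388% in PAX6_Ta KO, 0.624% and 0.0881% in PBX3_Cl KO, and 0.593% and 0.426% in Control once 7SK was left out, led by SNORD3A. Annotated length is that of the row and can exceed that of the RNA, as in ENSG00000259001. Length moved together with gene class and with copy number in these rows, and the parts of RNA purification, library size selection and read mapping in these levels were not tested.

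**Figure D4:**
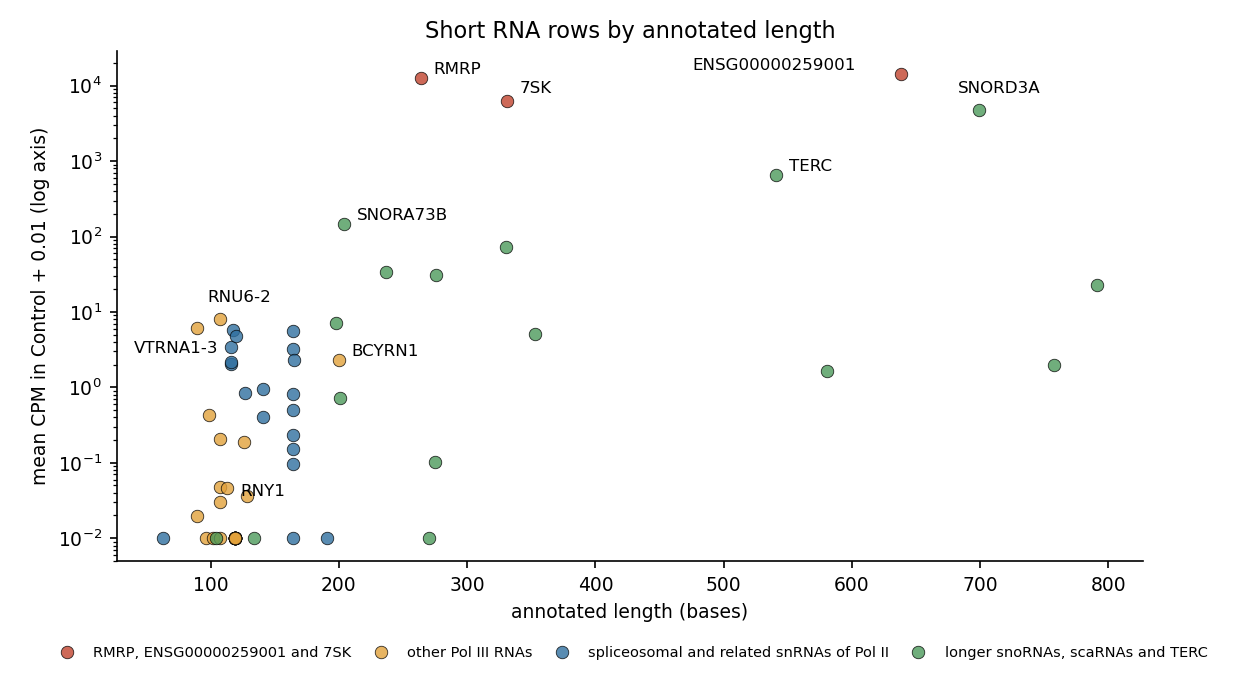
Mean CPM in Control with 0.01 added (vertical axis, log scale) against annotated length in bases (horizontal axis) for the listed short RNA rows, coloured by list, with each point 1 row. RMRP, ENSG00000259001 and 7SK lay near the top at 264, 638 and 331 bases, and no row under 200 bases reached 100 CPM.

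Dispersed copies of Pol III genes, most of them annotated as pseudogenes, took few counts in all. The 603 rows named as 7SL pseudogenes, 324 of them with counts, summed to 2893 and 4025 counts in PAX6_Ta KO, 2227 and 3282 in PBX3_Cl KO, and 3860 and 4184 in Control. No row is named RN7SL1 or RN7SL2, and the 14 rows named Metazoa_SRP held between 63 and 108 counts a library. RN7SL3 and rows named only by an identifier were not searched, so the table used here may hold other 7SL sequence. The 289 rows of 7SK pseudogenes, 110 of them with counts, summed to 2832 and 4675 in PAX6_Ta KO, 4786 and 2102 in PBX3_Cl KO, and 5210 and 5329 in Control. RN7SKP203 alone held 16600 of these counts over the 6 libraries, so these sums mostly describe that row. By share of a library, 7SL pseudogenes, Y RNA rows, 5S pseudogenes and U6 pseudogenes were each higher in replicate 2 than in replicate 1 of all 3 groups, opposite to RMRP, ENSG00000259001 and 7SK. The 1268 rows of U6 pseudogenes, for example, took 0.00362% and 0.00691% in PAX6_Ta KO, 0.00332% and 0.00610% in PBX3_Cl KO, and 0.00458% and 0.00741% in Control.

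The proteins that bind these RNAs were described by lists. Of 11 protein genes of RNase P and RNase MRP, edgeR called 0 in PAX6_Ta KO against Control, and DESeq2 called 0, while 1 was higher and 1 lower at an unadjusted p under 0.05. In PBX3_Cl KO against Control, 1 was called lower and 0 higher, beside 2.69% and 6.28% of all tested genes. That gene was RPP25, an RNA-binding subunit of both enzymes, at 15.9 and 21.4 CPM in PBX3_Cl KO and 49.3 and 43.8 CPM in Control. Its log2 fold change was -1.32 ± 0.21 (SE, adjusted p = 0.0015, edgeR), and the call held in all 9 alternatives and without any of the 6 libraries. In PAX6_Ta KO, RPP25 had 35.9 and 34.2 CPM (log2 fold change -0.41, adjusted p = 0.27). The list had a median log2 fold change of -0.16 in each knockout. The most counted members of this list, POP1 and POP7, differed between the knockouts. POP1, the largest protein of both enzymes, had 68.7 and 54.8 CPM in PAX6_Ta KO, against 114 and 93.6 CPM in PBX3_Cl KO (log2 fold change -0.75 ± 0.20, adjusted p = 0.030, edgeR), a call lost with only the 2 groups compared and without any 1 of PAX6_Ta KO replicate 1 or 2 or PBX3_Cl KO replicate 1 (highest adjusted p = 0.35).

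Proteins of the signal recognition particle and of the 7SK particle gave 0 calls. Of 8 genes of the signal recognition particle and its receptor, 0 were called in either knockout against Control by edgeR and 0 by DESeq2, and 1 was higher in PBX3_Cl KO at an unadjusted p under 0.05. SRP72, the most counted of them, lay between 282 and 407 CPM over the 6 libraries, with log2 fold changes of 0.16 in PAX6_Ta KO and 0.17 in PBX3_Cl KO (adjusted p = 0.79 each, edgeR). SRPRA, the docking receptor, had a log2 fold change of 0.21 in PAX6_Ta KO and 0.59 in PBX3_Cl KO (adjusted p = 0.68 and 0.14, edgeR). Of 8 genes of the 7SK particle and P-TEFb, 0 were called by edgeR and 0 by DESeq2, with 1 higher in PAX6_Ta KO at an unadjusted p under 0.05. MEPCE, which caps 7SK, had 191 and 173 CPM in PAX6_Ta KO, 172 and 238 CPM in PBX3_Cl KO, and 207 and 169 CPM in Control. CCNT1, the cyclin of P-TEFb, had log2 fold changes of -0.08 and 0.05 in PAX6_Ta KO and PBX3_Cl KO (adjusted p = 0.88 and 0.95, edgeR).

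Among the genes of Pol III itself, 2 of 13 subunits were called lower and 0 higher in PAX6_Ta KO against Control, beside 4.21% and 7.21% of all tested genes. POLR3G, the subunit form of undifferentiated and growing cells, had 32.4 and 35.3 CPM in PAX6_Ta KO, 76.6 and 64.1 CPM in PBX3_Cl KO, and 73.2 and 92.1 CPM in Control. Its log2 fold change in PAX6_Ta KO was -1.29 ± 0.20 (SE, adjusted p = 0.0011, edgeR), and the call held in all 9 alternatives and without any of the 6 libraries. POLR3A, the largest subunit, had 129 and 124 CPM in PAX6_Ta KO, 163 and 155 CPM in PBX3_Cl KO, and 223 and 209.9 CPM in Control (-0.77 ± 0.19, adjusted p = 0.017, edgeR, in PAX6_Ta KO). This call was lost without any 1 of the PAX6_Ta KO or Control libraries (highest adjusted p = 0.18). In PBX3_Cl KO, 0 of the 13 were called by edgeR and 0 by DESeq2, with 1 higher and 2 lower at an unadjusted p under 0.05. The 13 had a median log2 fold change of -0.12 against Control in PAX6_Ta KO, and of 0.03 in PBX3_Cl KO.

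Of 19 initiation factors of Pol III, 1 was called lower and 0 higher in PAX6_Ta KO, a count near the 4.21% of all tested genes called lower. It was BRF2, the factor that serves promoters of the RMRP, RPPH1, RN7SK and U6 kind, at 11.5 and 11.2 CPM in PAX6_Ta KO, 21.4 and 17.3 CPM in PBX3_Cl KO, and 20.9 and 17.3 CPM in Control. Its log2 fold change was -0.75 ± 0.22 (SE, adjusted p = 0.044, edgeR), and the call was lost with RLE size factors, with no filter and without any 1 of the PAX6_Ta KO or Control libraries (highest adjusted p = 0.32). Of 13 genes for binding and processing of Pol III RNAs, EXOSC10, a nuclease of the nuclear exosome, was the 1 called lower in PAX6_Ta KO and 0 were called higher, beside the same 4.21% and 7.21% of all tested genes. It had 84.8 and 78.9 CPM in PAX6_Ta KO, 135 and 119 CPM in PBX3_Cl KO, and 140 and 122 CPM in Control (-0.68 ± 0.19, adjusted p = 0.037, edgeR). The call of EXOSC10 was lost with RLE size factors and without any 1 of the PAX6_Ta KO or Control libraries (highest adjusted p = 0.31). In PBX3_Cl KO neither list had a call by edgeR or DESeq2, and at an unadjusted p under 0.05 there was 1 higher initiation factor and 1 lower processing gene. List medians were 0.03 and -0.22 in PAX6_Ta KO and 0.02 and -0.14 in PBX3_Cl KO, for initiation factors and processing genes.

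**Figure D5:**
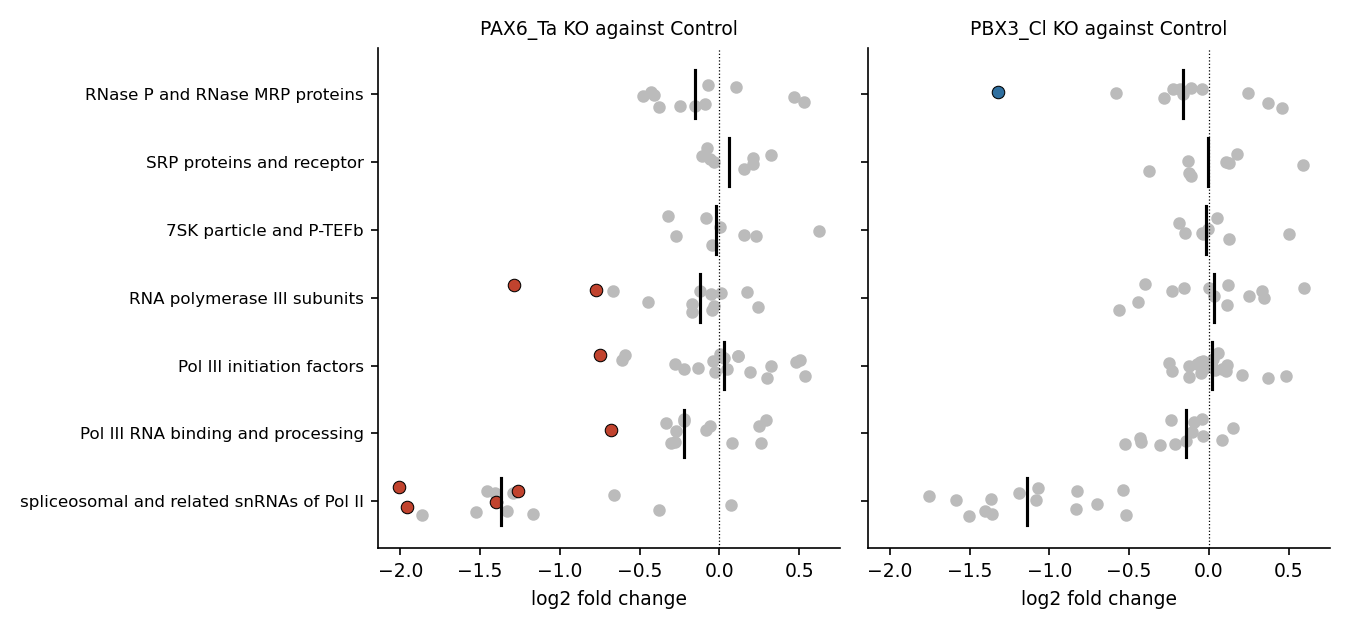
Log2 fold change against Control (horizontal axes) of the tested genes of 7 lists, in PAX6_Ta KO on the left and PBX3_Cl KO on the right, with coloured points for genes called by edgeR, grey points for the others and a black bar at the median of each list. POLR3G at -1.29 in PAX6_Ta KO and RPP25 at -1.32 in PBX3_Cl KO lay far below their list medians, and the snRNA medians were -1.37 and -1.14.

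The snRNAs, made by Pol II from promoters related to those of RMRP and 7SK, were counted at low levels. Of 14 tested rows, 4 were called lower and 0 higher in PAX6_Ta KO, beside 4.21% and 7.21% of all tested genes, with a median log2 fold change of -1.37. DESeq2 called 6 of the 14 lower there, beside 908 of all tested genes, and 10 were lower at an unadjusted p under 0.05. In PBX3_Cl KO edgeR called 0 and DESeq2 0, 8 were lower at an unadjusted p under 0.05, and the median was -1.14. Blocking on the replicate number, edgeR called 9 of the 14 lower in PAX6_Ta KO and 6 in PBX3_Cl KO. With that block, 1520 and 876 of all 20746 tested genes were called lower in the same comparisons. RNU5F-1, a U5 RNA, had 67 and 79 counts in PAX6_Ta KO, 228 and 63 in PBX3_Cl KO, and 370 and 277 in Control (log2 fold change -2.01 ± 0.49, adjusted p = 0.019, edgeR, in PAX6_Ta KO), and its call held in all 9 alternatives and without any of the 6 libraries. The other 3 called were RNU5B-1 (-1.96, adjusted p = 0.023, edgeR), RNU5D-1 (-1.40, adjusted p = 0.023) and RNU5E-1 (-1.26, adjusted p = 0.042). The call of RNU5B-1 was lost without PAX6_Ta KO replicate 2 (adjusted p = 0.14), that of RNU5D-1 without Control replicate 2 or either PAX6_Ta KO library (highest adjusted p = 0.17), and that of RNU5E-1 under the stricter filter or without any 1 of the PAX6_Ta KO or Control libraries (highest adjusted p = 0.29). U5 copies are nearly identical, so their reads may be split among rows or lost to them. All of these snRNA rows stood below 10 CPM in every library.

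Longer snoRNAs and scaRNAs gave calls in both directions. Of 15 tested rows with TERC included, 1 was called higher and 1 lower in PAX6_Ta KO, beside 7.21% and 4.21% of all tested genes. SNORD3B-2, a copy of U3, had 11.2 and 10.4 CPM in PAX6_Ta KO, 18.5 and 13.9 CPM in PBX3_Cl KO, and 20.8 and 24.7 CPM in Control (-1.08 ± 0.23, adjusted p = 0.0077, edgeR), and the call was lost without PAX6_Ta KO replicate 2 (adjusted p = 0.066). SCARNA9 had 8.89 and 12.2 CPM in PAX6_Ta KO, 3.97 and 3.73 CPM in PBX3_Cl KO, and 3.95 and 6.25 CPM in Control (1.05 ± 0.30, adjusted p = 0.042, edgeR). Its call was lost with upper-quartile factors, with library totals only, under the stricter filter and without Control replicate 1 or either PAX6_Ta KO library (highest adjusted p = 0.33). In PBX3_Cl KO edgeR and DESeq2 called 0 of the 15, with 1 lower at an unadjusted p under 0.05.

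Longer nuclear RNAs served as a contrast to the short ones. Of 5 tested, NEAT1, the scaffold of paraspeckles, was the 1 called higher in PAX6_Ta KO, beside 7.21% of all tested genes. It had 786 and 935 CPM in PAX6_Ta KO, 405 and 583 CPM in PBX3_Cl KO, and 439 and 524 CPM in Control (0.84 ± 0.24, adjusted p = 0.043, edgeR). The call was lost with upper-quartile factors, with library totals only and without any 1 of the PAX6_Ta KO or Control libraries (highest adjusted p = 0.29). MT-RNR1 and MT-RNR2, the mitochondrial ribosomal RNAs, had log2 fold changes of -0.14 and -0.45 in PAX6_Ta KO (adjusted p = 0.88 and 0.63, edgeR) and of -0.50 and -0.66 in PBX3_Cl KO (adjusted p = 0.48 and 0.47).

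The genes whose log2 CPM followed each row most closely over the 6 libraries were sought among 9019 tested genes with a mean of at least 10 CPM. For RMRP they were SLC25A5 (Pearson r = 0.997), RHOT1 (0.996) and YARS2 (0.992). For ENSG00000259001 they were METTL21A (0.999), POLR1C (0.992) and SLC16A1 (0.991), and for 7SK they were MTATP6P1 (0.994), DCTN2 (0.993) and VRK1 (0.992). Between the rows themselves r was 0.949 for RMRP and 7SK, 0.798 for ENSG00000259001 and 7SK, and 0.628 for RMRP and ENSG00000259001. These values are a description over 6 libraries that share depth and preparation, and the highest of 9019 genes are high by selection. SLC25A5, for example, had 298 and 233 CPM in PAX6_Ta KO, 292 and 196 CPM in PBX3_Cl KO, and 231 and 218 CPM in Control.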

How the data were processed

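Total RNA of K562 cells was isolated with a column kit and made into stranded libraries (ISOLATE II RNA Mini and Collibri Stranded RNA kits per the labels). Per the submitters' processing notes and the study's methods, reads were trimmed with cutadapt 3.4, aligned with STAR to GRCh37 and counted per gene. No source used here states the versions of STAR and DESeq2 or the strand setting. The authors deposited raw read counts per gene (whole numbers, no normalization), the values used here, and tables of their own comparisons (mean, log2 fold change, its error and p-values), which were not used. A further 4 columns of single libraries match no sample label and were not used.

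Counts were tested with edgeR 4.0.16 (R 4.3.3) by the quasi-likelihood test, with TMM factors and filterByExpr (minimum count 10), 1 fit over all 6 libraries, Benjamini-Hochberg adjustment over 20746 genes and calls below 0.05. CPM are TMM scaled. Libraries held 45912044 to 60908470 counts. Alternatives were DESeq2 1.42.0, other scalings (one without short RNA rows), no filter, a stricter filter (minimum count 50), only the 2 groups compared, a replicate block, and each library left out in turn. The test was checked on simulated data. Ratios were tested by exact permutation, and intervals are Wilson 95% intervals. For list counts at an unadjusted p under 0.05, the share over all tested genes is not given.

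The members and the gene lists were chosen with earlier results of these data known. Genes were named by rule: all members, the called genes of each list (at most 6, lowest p first) or else its 2 most counted, the 10 most counted rows, and the 3 genes most correlated with each row. SCARNA5, TERC, MALAT1, BCYRN1, RNY1, RNY4, PARP2, CCDC107, POP1 and the genes that differ only between the knockouts were named after their values were seen. Loci came from GENCODE lifted to GRCh37 and RefSeq. The labels do not say that a replicate number marks a shared culture or day, so numbers were not taken as pairs. The result of 1 marker gene is not reported here.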

Additional observations from a re-analysis of the deposited data

Results flagged for a closer look

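The results below are genes of the lists for which PAX6_Ta KO and PBX3_Cl KO differed by the edgeR test of that difference (adjusted p below 0.05 over all tested genes). RMRP, ENSG00000259001 and 7SK were not among them. Each value is a log2 fold change of PAX6_Ta KO over PBX3_Cl KO, and no cause was tested.

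Among proteins of RNase P and RNase MRP, POP1 had -0.75 and POP7 -0.88, while RPP25 had 0.91 and RPP40 1.05. CPM of POP7, which pairs with RPP25, were 36.0 and 34.7 in PAX6_Ta KO and 59.8 and 70.5 in PBX3_Cl KO. RPP40 had 18.7 and 23.2 CPM in PAX6_Ta KO and 12.9 and 7.37 CPM in PBX3_Cl KO. Among Pol III subunits, POLR3D had -0.70, POLR3G -1.06 and CRCP -1.26, while POLR3C had 0.74. CRCP had 33.9 and 29.2 CPM in PAX6_Ta KO and 80.9 and 70.4 CPM in PBX3_Cl KO, with Control between them at 55.9 and 44.3 CPM. The initiation factor BRF2 had -0.77 and the exosome nuclease EXOSC10 -0.64. The Cajal body RNAs SCARNA7 and SCARNA9 had 0.67 and 1.45. POLR3G and CRCP kept the call in all 9 alternatives and without any of the 6 libraries, while SCARNA7 lost it without any 1 library and EXOSC10 kept it in 2 of the 9 alternatives and BRF2 in 4 (highest adjusted p = 0.25 for BRF2, edgeR). BRF2, POP1 and POP7 lost it without either PAX6_Ta KO library, BRF2 and POP1 also without PBX3_Cl KO replicate 1. RPP25 lost it without PAX6_Ta KO replicate 1 and SCARNA9 without PAX6_Ta KO replicate 2. RPP40, POLR3C and POLR3D lost it without PBX3_Cl KO replicate 2, among others.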

How the results depend on the processing

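RMRP, ENSG00000259001 and 7SK were called in no alternative and no comparison. Leaving out 1 library at a time, log2 fold changes in PAX6_Ta KO against Control spanned 0.01 to 0.56 for RMRP, -0.50 to -0.20 for ENSG00000259001 and -0.25 to 0.53 for 7SK. In PBX3_Cl KO against Control they spanned -0.36 to 0.56 for RMRP, -0.95 to 0.083 for ENSG00000259001 and -0.75 to 0.40 for 7SK, which was 0.06 without Control replicate 1. In PAX6_Ta KO against PBX3_Cl KO they spanned -0.25 to 0.67 for RMRP (-0.18 without PAX6_Ta KO replicate 1), -0.43 to 0.61 for ENSG00000259001 (0.13 without PAX6_Ta KO replicate 2) and -0.21 to 0.95 for 7SK (-0.20 without PAX6_Ta KO replicate 1). In that comparison ENSG00000259001, at -0.01, changed sign to 0.0073 with RLE size factors, 0.11 with upper-quartile factors, 0.11 with library totals only, 0.013 with the scale set without short RNA rows, 0.0073 by DESeq2, 0.019 with no filter, 0.049 with the stricter filter, 0.042 with only the 2 groups compared and 0.047 with the replicate block.

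The replicate block moved genes called lower in PAX6_Ta KO against Control to 1520 (874 without the block, and 1317 with only the 2 groups compared), those in PBX3_Cl KO to 876 (558 without it), and in PAX6_Ta KO against PBX3_Cl KO moved calls to 1672 higher and 2204 lower (1091 and 1392 without it). Deviations of same-numbered libraries from their group means correlated at 0.4914, 0.2572 and 0.4663 over genes for the 3 pairs of groups, a hint from the data and not a design. Without 1 library, calls in PAX6_Ta KO against Control spanned 927 to 1939 higher (1496 with all libraries) and 427 to 1429 lower. In PBX3_Cl KO they spanned 851 to 1340 higher (1302 with all libraries) and 420 to 732 lower, and between the knockouts 662 to 1425 higher and 606 to 1535 lower. The cause of these shifts was not tested. Over the 36 differences of list genes that were called, and the 2 of BCYRN1, 0 turned direction in any alternative, 463 values stayed on their side of the threshold, 98 lost a call and 8 gained one, all 8 of BCYRN1. With the replicate block, 23 differences of list genes against Control were called that were not called without it, the 2 of BCYRN1 among them. Library totals only moved the median of all genes in PBX3_Cl KO to -0.10. Of the other Pol III RNAs, 5 of 31 rows passed the expression filter, and the cause of their low counts was not tested.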
